A study of Mus musculus with 8 samples.

Results

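The 46 genes described here act in DNA replication, in mitosis and in the control of the cell cycle, and they were measured among 20144 genes on 8 mouse microarrays. They were chosen by name and function, with earlier results of these data known. They comprise 15 DNA replication genes, 17 mitosis genes, 9 other cyclins and cyclin-dependent kinases (CDKs), and 5 Cdkn genes, which encode CDK inhibitors. All 46 had a probe named through its transcript accession, and 44 of them were well above background on 1 array or more. The 2 that were above background on no array were Aurkb, a mitotic kinase, and Ccne2, a cyclin of S-phase entry, and no fold is given for them.

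Each of the 8 arrays was a group of its own. On 5 arrays the cells were mouse liver cells that carried p75NTR, the neurotrophin receptor encoded by Ngfr that marks hepatic stellate cells. The livers were those of fetuses (E11.5, E13.5, E14.5, then E17.5) and of newborns at P1 (postnatal day 1). They were dissociated with collagenase, and the sort kept cells with p75NTR and discarded those with CD45, carried by leukocytes, or Ter119, carried by red cells. The adult hepatic stellate cells (adult HSC) were sorted for vitamin A, the retinoid these cells store, and so by another criterion than the younger liver cells. The MEF array held embryonic skin fibroblasts that had been grown in culture, and the MSC array held purified mesenchymal stem cells of adult bone marrow. The labels state culture for MEF alone. Strain, sex and whether animals were pooled for an array are not given in the sources used here.

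Before a cell divides, origins of replication are licensed: the origin recognition complex, with Cdc6 and Cdt1, loads the ring-shaped MCM helicase, and geminin later blocks Cdt1 so that each origin fires once. Cyclin B with Cdk1 then drives mitosis, in which kinetochores attach chromosomes to the spindle and a checkpoint holds back Cdc20 until all are attached. Cdkn proteins bind CDKs and hold cells before S phase. Stellate cells of the healthy adult liver are regarded as quiescent, and they are known to enter the cycle after injury or on culture plastic.

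Levels are log2 signals relative to the 75th percentile of the array, and precision is limited by having 1 array a group, with no spread between animals. Between 58.8% and 64.5% of the 43020 spots were well above background on an array, and 0 were saturated. The slope of the spike-in controls was 0.849 on the E11.5 array, against 0.922 to 0.933 on the others. Slide 1 held the 4 fetal arrays, and slide 2 held those of P1 and adult HSC together with MEF and MSC. Of 13 stellate markers, 12 or 13 were above background on each liver-derived array, against 9 on the MEF array and 6 on the MSC array. Other cell types also left RNA in the sorted fractions: the summed level of 12 hepatocyte markers, in multiples of the 75th percentile, was 11.6 at E11.5, 482 at E13.5, 1485 at E14.5, 160 at E17.5, 96.7 at P1 and 55.4 in adult HSC. Ptprc, which encodes CD45, was not well above background on any of the 6 liver-derived arrays, but other leukocyte markers were. Of 12 measured, 3 were above background at E11.5, 4 at E13.5, 6 at E14.5, 6 at E17.5, 7 at P1 and 8 in adult HSC. The summed level of these 12 was 7.01 at E11.5, 2.97 at E13.5, 4.96 at E14.5, 6.54 at E17.5, 11.1 at P1 and 8.91 in adult HSC. The summed level of 13 erythroid markers was 24.4 at E11.5, 46.5 at E13.5, 55.9 at E14.5, 216 at E17.5, 20.4 at P1 and 27.1 in adult HSC. In such bulk samples, fewer dividing cells and less RNA per dividing cell cannot be told apart.

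Replication and mitosis genes were high in E11.5 liver cells, lower at E17.5 and P1, lowest in adult HSC and, for most genes, highest in MSC. Adult HSC was the lowest of the 8 arrays for 15 of 15 replication genes and 15 of the 16 measured mitosis genes, and the other one, Ttk, was not well above background at E17.5, at P1 or in adult HSC and has no order there. Each gene was set against its own mean over the 8 arrays, since levels of different probes are not comparable. The median deviation of the 15 replication genes was 0.95 at E11.5, 0.63 at E13.5, 0.45 at E14.5, -0.17 at E17.5, -0.61 at P1, -2.70 in adult HSC, -0.08 in MEF and 1.23 in MSC. The median deviation of the 16 measured mitosis genes was 1.28 at E11.5, 0.62 at E13.5, 0.96 at E14.5, 0.15 at E17.5, -1.02 at P1, -4.38 in adult HSC, 0.51 in MEF and 1.85 in MSC. The mitosis genes thus spanned a wider range than the replication genes. Their median lay above that of the replication genes on the E11.5, E14.5, E17.5, MEF and MSC arrays and below it at P1 and in adult HSC. Each gene is centred on its own mean, so a low adult HSC value raises its deviations on the other arrays, more for mitosis genes. In adult HSC the mitosis median minus the replication median was -1.68 on the log2 scale, and this difference lay between -1.87 and -1.62 under 7 other ways of processing the values.

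**Figure D1:**
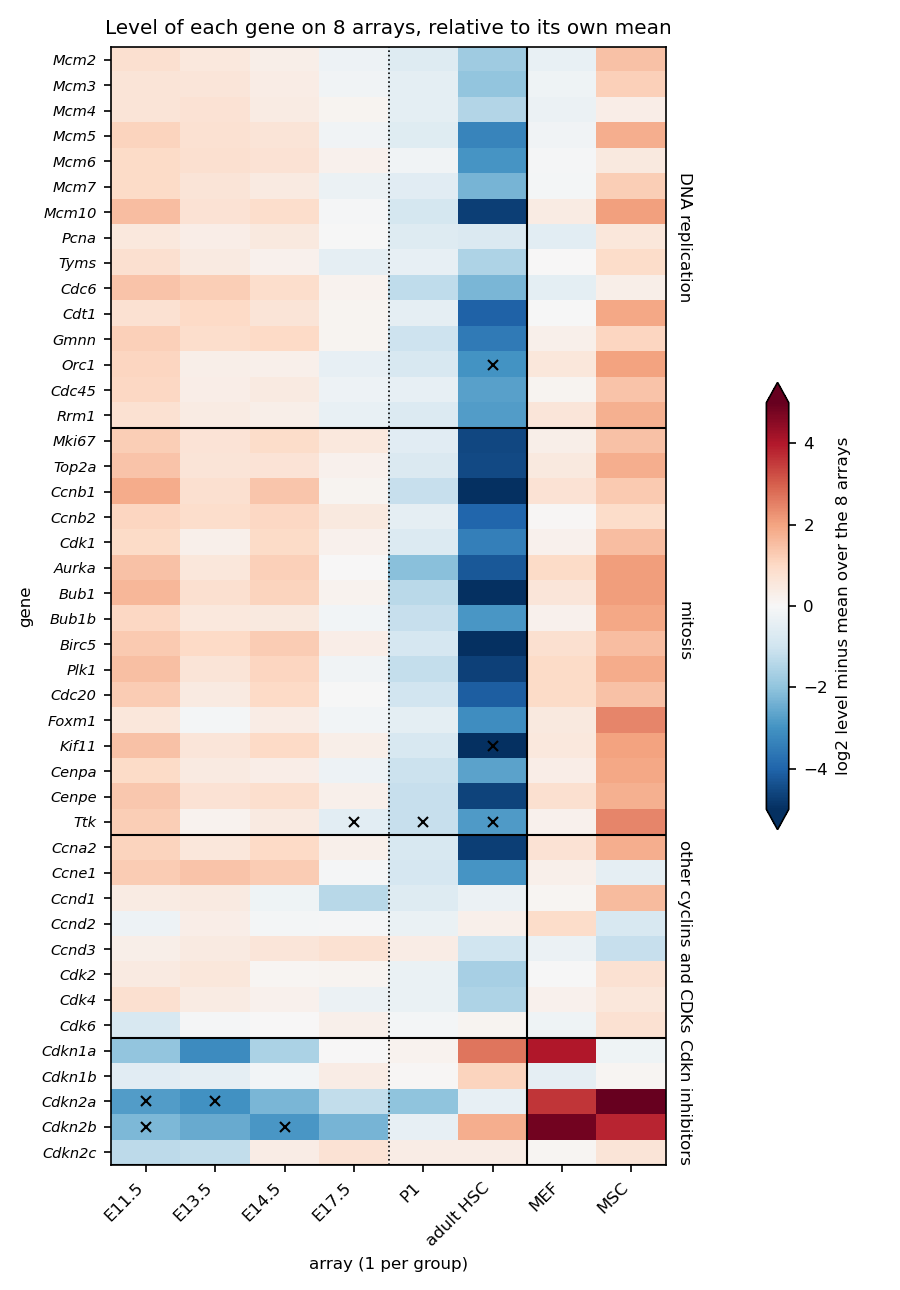
Colour shows the log2 level of each of 44 genes (rows, grouped by role) on 8 arrays (columns) minus the mean of that gene over the 8 arrays, with the scale ending at 5 on either side, and crosses mark levels not well above background. The adult HSC column is the lowest for every replication gene and every mitosis gene but Ttk, whose last 3 liver-derived columns are crossed, and none of the 5 Cdkn rows is lowest there. The dotted line separates slide 1 (left) from slide 2, and the solid vertical line separates liver-derived cells from MEF and MSC.

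**Figure D2:**
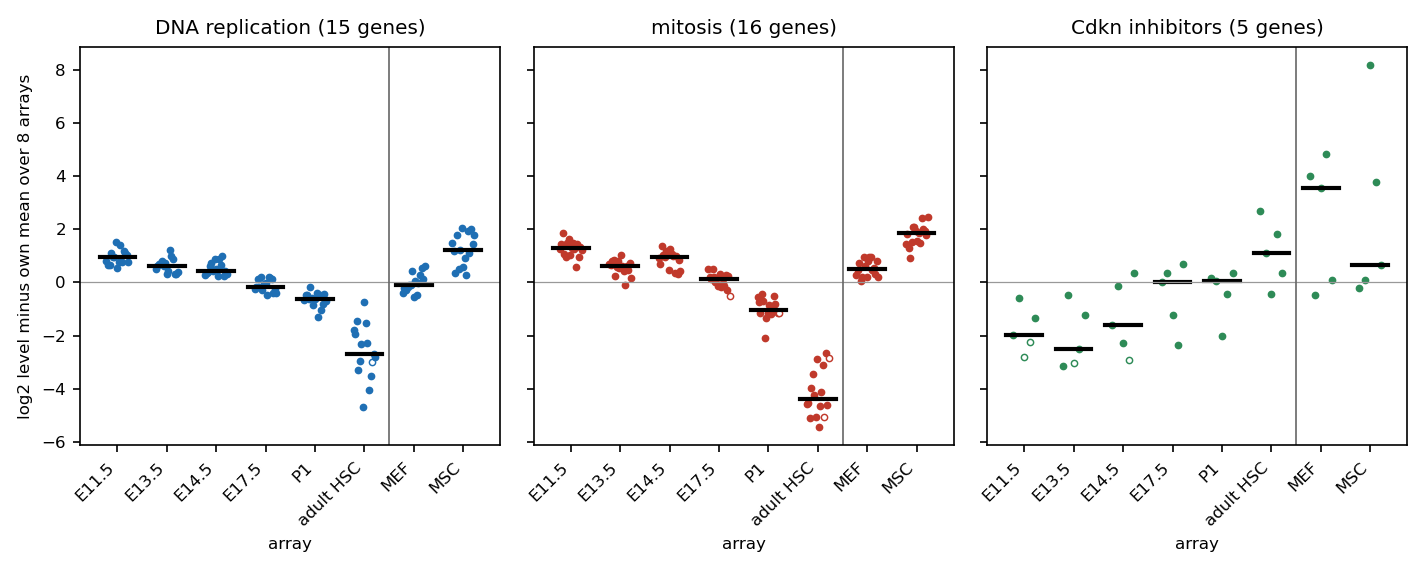
Points are single genes and black bars the list medians of the log2 level minus the mean of the gene over the 8 arrays, with 1 array at each position and open points not well above background. The replication median runs between -2.70 in adult HSC and 1.23 in MSC, the mitosis median between -4.38 and 1.85 on the same arrays, and the Cdkn median is highest in MEF at 3.57.

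Among the licensing factors, Cdc6, the ATPase that helps load the MCM ring, had the largest difference between newborn and the youngest liver cells by the probe used. Cdc6 had levels of -1.06 at E11.5, -1.24 at E13.5, -1.59 at E14.5, -2.29 at E17.5, -3.76 at P1, -4.74 in adult HSC, -2.94 in MEF and -2.18 in MSC. It was lower on each later liver array, and its 3 highest arrays were fetal liver, as they were for Mcm4 and Mcm6. Cdc6 was 6.49-fold lower at P1 than at E11.5, and 1.98-fold lower in adult HSC than at P1. A second Cdc6 probe gave another order: it was highest in MSC at -1.67, and at -4.46 at P1 and -2.54 at E11.5 it was 3.79-fold lower at P1. Cdt1, the other loader, had levels of 3.52 at E11.5, 3.75 at E13.5, 3.39 at E14.5, 2.90 at E17.5, 2.28 at P1, -1.29 in adult HSC, 2.74 in MEF and 4.69 in MSC. For Cdt1 the larger difference was the later one, since it was 2.36-fold lower at P1 than at E11.5 and 11.8-fold lower in adult HSC than at P1. Gmnn, which encodes the Cdt1 inhibitor geminin, had levels of 0.19 at E11.5, -0.12 at E13.5, -0.01 at E14.5, -0.86 at E17.5, -2.05 at P1, -4.54 in adult HSC, -0.73 in MEF and 0.09 in MSC. Orc1, the origin recognition subunit whose amount varies through the cycle, was at -2.30 at E11.5, -4.19 at P1, -2.84 in MEF and -1.40 in MSC, and it was not well above background in adult HSC, which puts it at least 3.38-fold lower there than at P1.

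The 6 subunits of the MCM helicase were alike in their difference over the 5 stages and unlike between adult HSC and P1. At P1 they were between 2.17-fold (Mcm6) and 3.28-fold (Mcm5) lower than at E11.5. In adult HSC, Mcm6 was 6.85-fold lower than at P1 and Mcm5 6.47-fold lower, while Mcm4 was 1.97-fold and Mcm2 2.19-fold lower. Mcm5 had levels of 4.11 at E11.5, 3.75 at E13.5, 3.63 at E14.5, 2.83 at E17.5, 2.39 at P1, -0.30 in adult HSC, 2.83 in MEF and 4.81 in MSC. MSC was highest, the fetal arrays followed by age, MEF was level with E17.5, and adult HSC was last. Mcm10, which helps the helicase start unwinding, had the widest span of the replication genes: 2.12 at E11.5, 1.31 at E13.5, 1.46 at E14.5, 0.52 at E17.5, -0.28 at P1, -4.11 in adult HSC, 1.01 in MEF and 2.65 in MSC. It was 14.2-fold lower in adult HSC than at P1. Cdc45, which joins the active helicase, was 2.73-fold lower at P1 than at E11.5 and 4.83-fold lower in adult HSC than at P1.

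Pcna, the sliding clamp of the replication fork that also serves DNA repair, stood apart from the other replication genes in adult HSC. Its levels were 4.48 at E11.5, 4.27 at E13.5, 4.45 at E14.5, 3.94 at E17.5, 3.32 at P1, 3.21 in adult HSC, 3.40 in MEF and 4.51 in MSC. The adult HSC, P1 and MEF values of Pcna lay within 0.20 of each other, and its level in adult HSC was 1.08-fold lower than at P1, less than for any of the other 14 replication genes. The enzymes of nucleotide supply followed the majority. Rrm1, the large subunit of ribonucleotide reductase, was 2.79-fold lower at P1 than at E11.5 and 4.27-fold lower in adult HSC than at P1. Tyms, thymidylate synthase, was 2.29-fold lower at P1 than at E11.5 and 2.17-fold lower in adult HSC than at P1.

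Mki67, the proliferation antigen that coats mitotic chromosomes, had levels of 4.64 at E11.5, 4.08 at E13.5, 4.33 at E14.5, 3.91 at E17.5, 2.83 at P1, -1.16 in adult HSC, 3.69 in MEF and 4.85 in MSC. The E11.5 and MSC arrays were highest, E17.5 and MEF lay close together, and adult HSC was far below the rest. Mki67 was 3.49-fold lower at P1 than at E11.5 and a further 16-fold lower in adult HSC than at P1. A second Mki67 probe ran in the same order, at 2.45 at P1 and -1.73 in adult HSC.

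Of the genes of mitotic entry, Aurka, a kinase of centrosome maturation, had the largest difference between newborn and the youngest cells. Aurka had levels of 3.47 at E11.5, 2.57 at E13.5, 3.18 at E14.5, 2.0 at E17.5, -0.08 at P1, -2.23 in adult HSC, 2.95 in MEF and 4.09 in MSC. It was 11.7-fold lower at P1 than at E11.5, the largest such fold measured among the 46 genes, and 4.24-fold lower at P1 than at E17.5. Ccnb1, a B-type cyclin, had levels of 4.19 at E11.5, 3.13 at E13.5, 3.71 at E14.5, 2.45 at E17.5, 1.17 at P1, -2.76 in adult HSC, 3.06 in MEF and 3.61 in MSC. The order of E11.5 and MSC differed between the Ccnb1 probes, since another probe was at -0.30 at E11.5 and 0.54 in MSC and the third at 0.63 at E11.5 and 0.16 in MSC. Ccnb2, the other B-type cyclin, differed less, being 2.81-fold lower at P1 than at E11.5 where Ccnb1 was 8.15-fold lower. Their partner Cdk1 was 3.14-fold lower at P1 than at E11.5 and 6.72-fold lower in adult HSC than at P1. Plk1, the polo kinase that activates cyclin B with Cdk1, was 6.48-fold lower at P1 than at E11.5 and 11-fold lower in adult HSC than at P1. Foxm1, a transcription factor of many mitosis genes, varied least over the stages, with levels of 0.62 at E11.5, -0.06 at E13.5, 0.41 at E14.5, -0.09 at E17.5, -0.44 at P1, -3.04 in adult HSC, 0.54 in MEF and 2.48 in MSC.

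Genes of chromosome structure, the spindle and the checkpoint were likewise lower at P1 than at E11.5. Birc5, the survivin subunit of the chromosomal passenger complex, had levels of 5.23 at E11.5, 4.93 at E13.5, 5.18 at E14.5, 4.24 at E17.5, 3.08 at P1, -1.52 in adult HSC, 4.71 in MEF and 5.45 in MSC. Birc5 was 24.3-fold lower in adult HSC than at P1, the largest fold measured among the 46 genes in that comparison. Top2a, the topoisomerase that untangles chromosomes, was 4.51-fold lower at P1 than at E11.5 and 13.9-fold lower in adult HSC than at P1. Kif11, the motor that separates spindle poles, was at 0.41 at E11.5, -1.85 at P1, -0.51 in MEF and 0.96 in MSC, and it was not well above background in adult HSC, at least 17-fold lower than at P1. Bub1, a checkpoint kinase, had levels of 1.68 at E11.5, 0.83 at E13.5, 1.13 at E14.5, 0.20 at E17.5, -1.32 at P1, -5.04 in adult HSC, 0.64 in MEF and 2.12 in MSC. Its relative Bub1b, BubR1, differed less, at 4.55-fold lower at P1 than at E11.5 against 8.04-fold for Bub1. Cdc20, the activator that the checkpoint restrains, was 4.64-fold lower at P1 than at E11.5, and Cenpe, a kinetochore motor, 5.54-fold lower. Cenpa, the histone variant of centromeres, was 4.12-fold lower at P1 than at E11.5 but only 3-fold lower in adult HSC than at P1, the smallest difference among the 15 mitosis genes compared there. Ttk, the checkpoint kinase Mps1, was above background at E11.5, E13.5 and E14.5 and in MEF and MSC, and not at E17.5, at P1 or in adult HSC, so it was at least 4.35-fold lower at P1 than at E11.5.

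The first comparison asked how the level of these genes varied with the age of the p75NTR-positive liver cells. A line fitted to the 5 stages in their order had a slope, in log2 per step, that was negative for 15 of 15 replication genes, with a median of -0.37, and for 16 of 16 mitosis genes, with a median of -0.49, against a median of -0.03 over all 15504 genes tested. By limma with Benjamini-Hochberg adjustment over all genes, 0 of the 46 and 0 of all genes passed an adjusted p of 0.05 (0%), so none of these slopes is called. The lowest adjusted p among the 46 was 0.0691, for Cenpa (slope -0.48 ± 0.08 SE, lower in 4 of 4 steps) and Orc1 (-0.45 ± 0.07 SE, lower in 4 of 4 steps). At an unadjusted p under 0.05 by limma, the slope was negative for 15 replication genes, 14 mitosis genes and 5 other cyclins and CDKs, against 15.6% of all genes, and positive for 3 Cdkn genes, against 12.4% of all genes. These p-values measure the scatter of 5 different stages about a line, not the spread between animals. The call depends on the settings of the fit. With an intensity trend and robust prior 13 of the 46 passed, against 7.33% of all genes, with normexp background correction 13, against 4.89%, and with genes required above background at all 5 stages 9, against 4.91%. Bub1b, Cenpa, Mcm10, Mcm2, Mcm5, Mcm7, Rrm1 and Top2a passed under all 3.

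**Figure D3:**
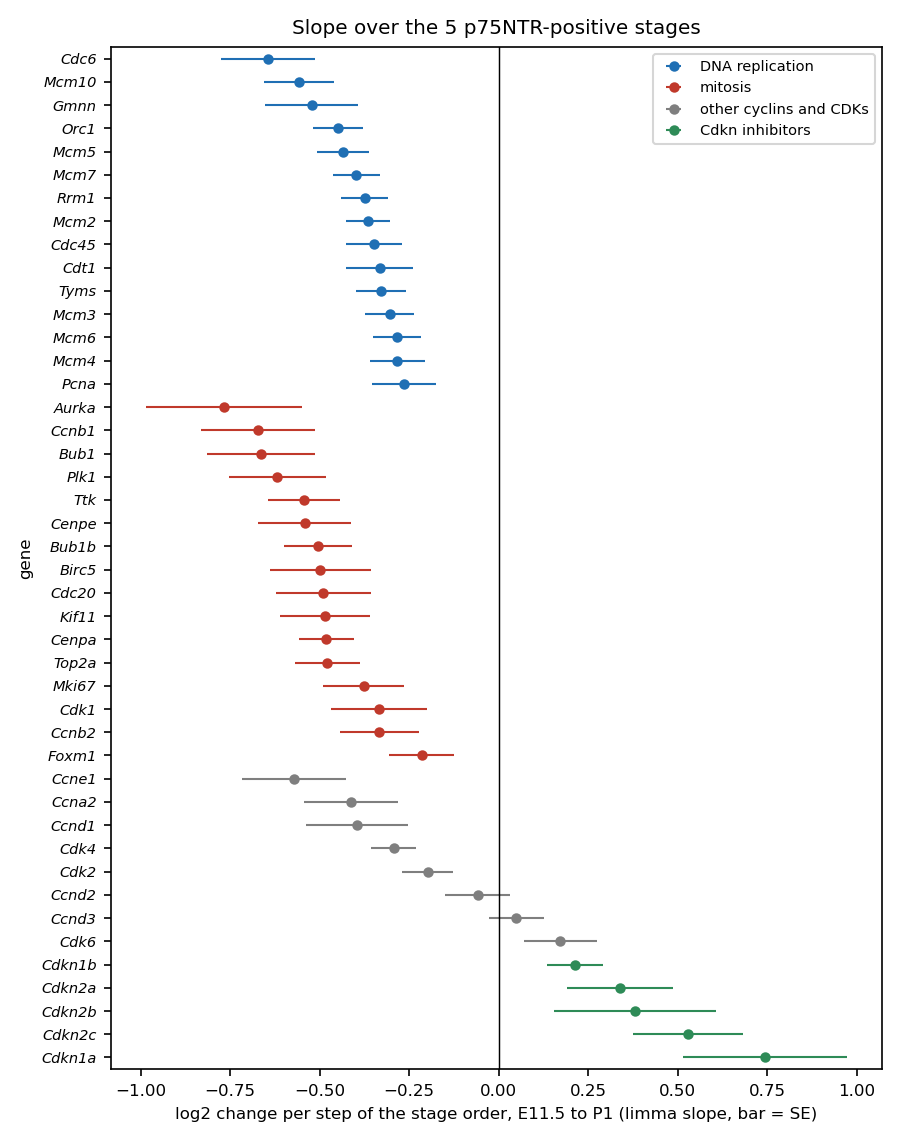
Points are limma slopes in log2 units per step of the stage order between E11.5 and P1 (5 arrays), bars are their standard errors, and colours mark the 4 groups of genes. All replication and mitosis genes lie left of 0, between -0.77 for Aurka and -0.22 for Foxm1, and the 5 Cdkn genes lie right of 0.

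Between E11.5 and P1, 15 of 15 replication genes and 16 of 16 mitosis genes were at least 2-fold lower at P1, against 14.9% of all genes measured on those arrays. The median difference was -1.45 for the replication genes and -2.20 for the mitosis genes, against -0.09 for all genes. P1 was on slide 2 and E11.5 on slide 1, so the slide and the stage cannot be told apart in that pair. Within slide 1, E17.5 over E11.5, a pair added after the data were seen, 10 of 15 replication genes and 11 of 16 mitosis genes were at least 2-fold lower at E17.5, against 14.6% of all genes, and all 31 were lower by some amount. The summed hepatocyte level was higher at P1 than at E11.5 (96.7 against 11.6), as was that of 6 pancreatic acinar markers (55.1 against 0.54). Their part in these differences was not tested.

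The course was not even, and replication and mitosis genes parted between E13.5 and E14.5, both on slide 1. At E14.5, 14 of 16 mitosis genes were higher than at E13.5, with a median difference of 0.28, while 4 of 15 replication genes were higher, with a median difference of -0.12. Of all genes, 45.1% were higher at E14.5, and their median difference was -0.05. The replication median thus lay nearer to that of all genes than the mitosis median did. Cdk1, for example, was at 1.11 at E14.5 and 0.42 at E13.5, and Aurka at 3.18 at E14.5 and 2.57 at E13.5, whereas Mcm4 was at 4.22 at E14.5 and 4.53 at E13.5, and Cdc6 at -1.59 at E14.5 and -1.24 at E13.5. The differences were all under 2-fold, with 1 array a stage and no test of them. Of the other mitosis genes listed below, 45 of 49 were higher at E14.5, with a median difference of 0.31. Of the other replication genes 13 of 41 were higher, and their median difference of -0.07 was close to that of all genes. The medians of the 16 mitosis and 15 replication genes kept their signs under 8 alternatives. They lay between 0.21 and 0.33 for the mitosis genes and between -0.23 and -0.11 for the replication genes. The hepatocyte markers summed to 1485 at E14.5 and 482 at E13.5, and their part in this difference was not tested. Over the whole course, 8 of 15 replication genes were lower at each of the 4 steps, but only 2 of 15 mitosis genes above background at all 5 stages, Bub1b and Cenpa, against 7.94% of all genes.

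The step between E17.5 and P1 set the lists apart the other way. At P1, 9 of 15 mitosis genes were at least 2-fold lower than at E17.5, with a median difference of -1.04. Of 15 replication genes, 2 were at least 2-fold lower, Cdc6 and Gmnn, with a median difference of -0.41. Of all genes 4.74% were at least 2-fold lower, and their median difference was 0.01. E17.5 was on slide 1 and P1 on slide 2, so the slide and the stage cannot be told apart in this step. The summed erythroid level was 20.4 at P1 and 216 at E17.5, and the summed acinar level was 55.1 at P1 and 3.07 at E17.5, and their part was not tested.

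The other cyclins and CDKs did not act as a block. Ccna2, the cyclin of S phase and early mitosis, followed the mitosis genes, with levels of 3.43 at E11.5, 2.91 at E13.5, 3.34 at E14.5, 2.60 at E17.5, 1.53 at P1, -2.36 in adult HSC, 3.05 in MEF and 4.14 in MSC. Ccne1, a cyclin that partners Cdk2 at S-phase entry, had levels of 4.02 at E11.5, 4.18 at E13.5, 4.02 at E14.5, 2.68 at E17.5, 1.91 at P1, -0.22 in adult HSC, 3.00 in MEF and 2.28 in MSC. By this probe its level lay between 4.02 and 4.18 over the first 3 stages and was higher on those arrays than in MSC. A second Ccne1 probe was at -1.55 at E11.5, -1.64 at E13.5, -2.21 at E14.5 and -1.80 in MSC, so its E14.5 array lay below MSC. Cdk4, the partner of D-type cyclins, was 2.15-fold lower at P1 than at E11.5 and 2.36-fold lower in adult HSC than at P1, and Cdk2 was 1.7-fold and 2.53-fold lower in the same comparisons.

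The D-type cyclins, which link growth signals to Cdk4 and Cdk6, differed from one another, and 2 of them, Ccnd1 and Ccnd2, were higher in adult HSC than at P1. Ccnd1 had levels of 3.78 at E11.5, 3.84 at E13.5, 3.16 at E14.5, 2.0 at E17.5, 2.72 at P1, 3.09 in adult HSC, 3.49 in MEF and 4.95 in MSC, so its lowest array was E17.5 and adult HSC lay above P1. Ccnd2 varied little over the liver-derived arrays, with levels of 3.22 at E11.5, 3.81 at E13.5, 3.38 at E14.5, 3.41 at E17.5, 3.12 at P1 and 3.70 in adult HSC. Its highest array was MEF at 4.38 and its lowest MSC at 2.66. Ccnd3 had levels of 5.80 at E11.5, 5.97 at E13.5, 6.13 at E14.5, 6.30 at E17.5, 5.89 at P1, 4.52 in adult HSC, 5.25 in MEF and 4.36 in MSC. Ccnd3 was thus the D-type cyclin that was higher on all 5 p75NTR arrays than in MEF, MSC and adult HSC. Cdk6 lay between -4.62 at E11.5 and -3.04 in MSC, with adult HSC at -3.67.

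The Cdkn inhibitors had other orders of arrays than the replication and mitosis genes, and none of the 5 was lowest in adult HSC. Cdkn1a, p21, had levels of -2.30 at E11.5, -3.47 at E13.5, -1.92 at E14.5, -0.31 at E17.5, -0.16 at P1, 2.35 in adult HSC, 3.67 in MEF and -0.53 in MSC. Its highest array was MEF, on which the median deviation of the mitosis genes was 0.51, and its lowest was E13.5, 2.26-fold lower than E11.5. Cdkn1b, p27, had levels of 1.04 at E11.5, 1.17 at E13.5, 1.49 at E14.5, 1.99 at E17.5, 1.70 at P1, 2.74 in adult HSC, 1.16 in MEF and 1.70 in MSC, a narrower range with adult HSC highest. Cdkn2c, p18, was at -1.83 at E11.5 and -1.73 at E13.5 and then between -0.42 and 0.20 on the other 6 arrays. It was 2.98-fold higher at E14.5 than at E13.5. At P1 the median difference of the 5 Cdkn genes from E17.5 was -0.30.

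Cdkn2a and Cdkn2b, neighbouring INK4 genes that accumulate in cultured and aged cells, were lower on all liver-derived arrays than in MEF and MSC. Cdkn2a, which in mouse encodes p16 and p19Arf, was not well above background at E11.5 and E13.5 and had levels of -5.03 at E14.5, -3.97 at E17.5, -4.76 at P1, -3.17 in adult HSC, 0.82 in MEF and 5.43 in MSC. Cdkn2b, p15, was not well above background at E11.5 and E14.5 and had levels of -5.38 at E13.5, -5.21 at E17.5, -3.29 at P1, -1.03 in adult HSC, 1.95 in MEF and 0.93 in MSC. For both genes no liver-derived array reached the level of MEF or MSC. A second Cdkn2a probe was above background on the MEF and MSC arrays alone, at -2.96 in MEF and 2.13 in MSC, and a second Cdkn1a probe in MEF alone, at -0.85. A second Cdkn2b probe was above background in adult HSC (-4.14), MEF (-1.13) and MSC (-1.65) alone. These second probes give no fold between P1 and E11.5. At P1 the 5 Cdkn genes were higher than at E11.5, and 3 of them, Cdkn1a (4.41-fold), Cdkn2b (at least 3.53-fold) and Cdkn2c (3.2-fold), by at least 2-fold, against 19.3% of all genes. Cdkn1c, p57, a CDK inhibitor outside the 5 that is named after its values were seen, ran the other way. Its log2 level minus its own mean over the 8 arrays was 2.47 at E11.5, 1.41 at E17.5, 1.02 at P1 and -5.62 in MSC.

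**Figure D4:**
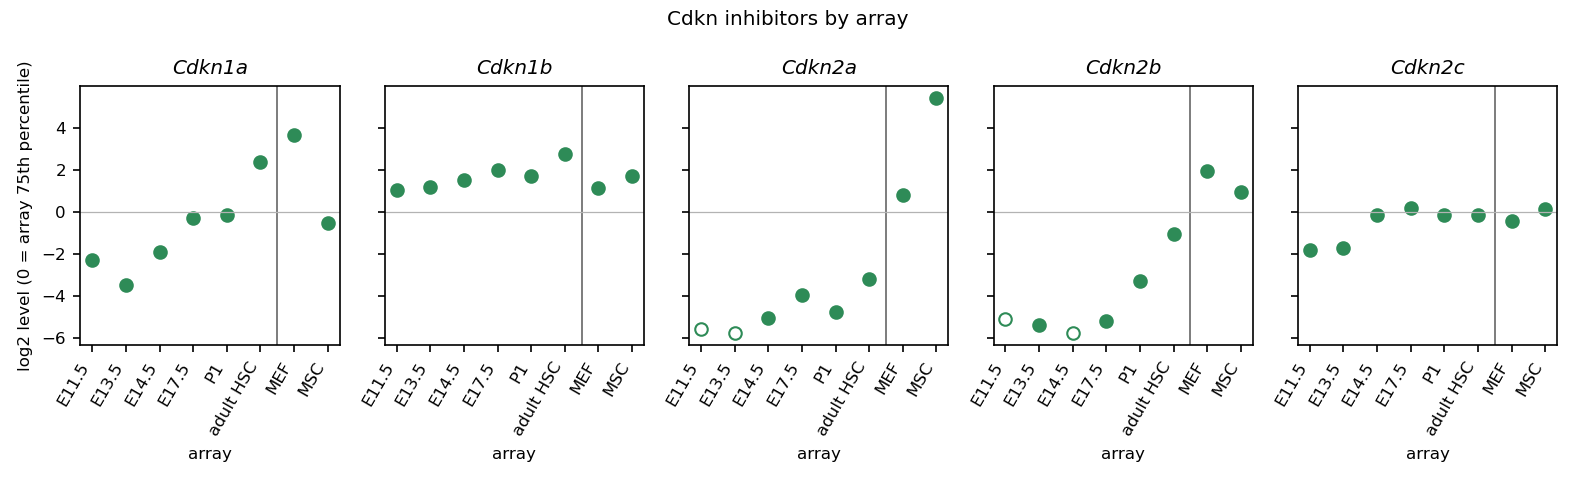
Each panel gives the log2 level of 1 Cdkn gene, relative to the 75th percentile of the array, on 8 arrays with 1 point an array, and open points are not well above background. Cdkn1a peaks in MEF at 3.67 and in adult HSC reaches 2.35, and Cdkn2a is at 5.43 in MSC and 0.82 in MEF. On the left of their panels, Cdkn2a and Cdkn2b lie near the background.

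Adult HSC and P1 cells, both on slide 2, differed more than any neighbouring stages, although the cells were sorted by different markers. In adult HSC 12 of 15 replication genes and 15 of 15 mitosis genes were at least 2-fold lower than at P1, against 23.8% of all genes, with Ttk left out as not above background on either array. The median difference was -2.09 for the replication genes and -3.48 for the mitosis genes, against -0.06 for all genes. The 3 replication genes under 2-fold were Pcna, Mcm4 and Cdc6. Of the Cdkn genes, 4 of 5 were at least 2-fold higher in adult HSC, against 14.4% of all genes: Cdkn1a by 5.69-fold, Cdkn2b by 4.78-fold, Cdkn2a by 3.02-fold and Cdkn1b by 2.05-fold. Cdkn2c was at -0.15 on both arrays. The summed level of 10 endothelial markers was 225 in adult HSC and 17.3 at P1, and its part was not tested. With 1 array on each side no test was run.

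Against the cultured fibroblasts, the youngest liver cells were the higher and the oldest the lower. The E11.5 and MEF arrays lay on different slides. At E11.5, 15 of 15 replication genes and 16 of 16 mitosis genes were higher than in MEF, against 53.7% of all genes, with 7 and 4 of them at least 2-fold higher, against 16.1%, while 4 of 5 Cdkn genes were at least 2-fold lower at E11.5, against 17% of all genes. These were Cdkn1a (62.3-fold), Cdkn2a (at least 72.3-fold), Cdkn2b (at least 134-fold) and Cdkn2c (2.67-fold). At P1, 4 of 15 replication genes and 12 of 16 mitosis genes were at least 2-fold lower than in MEF, against 13.9% of all genes. In adult HSC, 14 of 15 replication genes and 16 of 16 mitosis genes were at least 2-fold lower than in MEF, against 26.2% of all genes, with Birc5 75.5-fold and Ccnb1 56.6-fold lower.

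MSC was the highest of the 8 arrays for 11 of 15 replication genes and 14 of 16 mitosis genes. At P1, 13 of 15 replication genes and 16 of 16 mitosis genes were at least 2-fold lower than in MSC, against 21.4% of all genes. In adult HSC all 15 replication and 16 mitosis genes were at least 2-fold lower than in MSC, against 27.5% of all genes, with Bub1 143-fold and Mcm10 108-fold lower. Between MSC and MEF, both on slide 2, 15 of 15 replication genes and 16 of 16 mitosis genes were higher in MSC, against 52% of all genes, with a median difference of 1.31 and 1.24. Cdkn2a was 24.4-fold higher and Cdkn1a 18.3-fold lower in MSC than in MEF.

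The 6 liver-derived arrays were then set against MEF and MSC together, which asked whether any of these genes differed between them. Cdkn2a was the only member that passed: it averaged -4.71 over the liver-derived arrays and 3.12 over MEF and MSC, a difference of -7.83 ± 1.17 SE (limma adjusted p = 0.0246, lower on 6 of 6 liver-derived arrays), where 1.58% of 16424 genes passed. Fits without the E13.5, E14.5, E17.5, P1 or MSC array gave limma adjusted p-values of 0.0640, 0.0742, 0.0646, 0.0538 and 0.0524, and that with slide as a block 0.108 (difference -7.09). Cdkn2b averaged -4.30 over the liver-derived arrays and 1.44 over MEF and MSC, a difference of -5.74 ± 1.23 SE that did not pass (limma adjusted p = 0.0716), and it passed without the adult HSC array (limma adjusted p = 0.00843, difference -6.39). Of the other members 0 passed, and at an unadjusted p under 0.05 by limma these same 2 genes were the only members lower in the liver-derived cells, against 8.9% of all genes. The median difference was -0.76 for the replication genes and -1.59 for the mitosis genes, and it was -2.01 and -3.76 within slide 2, where P1 and adult HSC are the liver-derived arrays. Single arrays moved these medians: the replication median was -0.11 without MSC, -0.36 without adult HSC and -1.42 without MEF, and the mitosis median was -0.96 without MSC, -0.88 without adult HSC and -2.25 without MEF. The 6 arrays are of different ages, so their spread holds the differences with age described above. MEF and MSC are different cell types, with Cdkn2a at 0.82 in MEF and 5.43 in MSC. The SEs and p-values thus measure spread among stages and cell types, not between animals. Liver origin cannot be told apart here from cell type, the culture of MEF or the way the cells were purified.

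Over the 8 arrays the replication and mitosis medians ran together, and the Cdkn median ran opposite to them only in part. As a description over 8 arrays that share labelling and normalization, Pearson's r between the mitosis and replication medians was 0.984 (Spearman's rho 0.976), and 0.906 over the 6 arrays left without MSC and adult HSC. The Cdkn and replication medians gave r = -0.395 (rho -0.429), and -0.627 over the same 6 arrays. For the Cdkn and mitosis medians r was -0.279 (rho -0.381), and -0.140 over the 6 arrays left without P1 and adult HSC. The Cdkn median was -1.96 at E11.5, -2.52 at E13.5, -1.59 at E14.5, 0.02 at E17.5, 0.07 at P1, 1.11 in adult HSC, 3.57 in MEF and 0.66 in MSC. Among the liver-derived arrays it was negative at E11.5, E13.5 and E14.5, where both other medians were positive. It was highest there in adult HSC, where both other medians were lowest. MEF thus combined the highest Cdkn median with replication and mitosis medians inside the range of the fetal arrays, and MSC combined a Cdkn median of 0.66 with the highest medians of both other lists.

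Mki67 served as a common yardstick for single genes over the 8 arrays. Its r was between 0.885 (Ttk) and 0.995 for the other mitosis genes, and between 0.752 (Pcna) and 0.987 (Mcm10) for the replication genes. The other cyclins and CDKs ranged between -0.28 (Ccnd2) and 0.993 (Ccna2), and the Cdkn genes between -0.81 (Cdkn1b) and 0.14 (Cdkn2a). Adult HSC lies far from the other arrays for most genes and weighs heavily in these values.

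Genes outside the 46 that serve the same processes mostly ran in the same direction. Their lists were also made with earlier results known and read on the same arrays, so they are not independent support. Of 41 other replication genes tested over the stages, 40 had a negative slope (median -0.30). Of 49 other mitosis genes 48 had one (median -0.39), against 8487 of all 15504 genes. At an unadjusted p under 0.05 by limma, 33 and 39 were negative, against 15.6% of all genes, and 0 passed an adjusted p under 0.05. Uhrf1, which recruits maintenance DNA methylation at forks, was at 4.64 at E11.5, 2.50 at P1, -2.06 in adult HSC, 3.34 in MEF and 4.38 in MSC. Espl1, the separase that cuts cohesin, was at 0.20 at E11.5, -3.53 at P1, -0.91 in MEF and 1.09 in MSC. Ccnf, a cyclin of the F-box type, was at 2.16 at E11.5, -1.11 at P1, -4.42 in adult HSC, 1.80 in MEF and 2.68 in MSC. Of 32 upstream regulators 27 had a negative slope (median -0.21). Mycn and Myc, related growth regulators, ran in opposite directions. Mycn had levels of 1.14 at E11.5, 0.53 at E13.5, -0.55 at E14.5, -1.62 at E17.5, -1.93 at P1, 0.41 in adult HSC, -2.27 in MEF and -5.24 in MSC (slope -0.83 ± 0.08 SE, limma adjusted p = 0.0588, lower in 4 of 4 steps). Myc had levels of -0.64 at E11.5, 0.10 at E13.5, -0.12 at E14.5, 0.91 at E17.5, 1.23 at P1, 1.27 in adult HSC, 0.17 in MEF and 2.09 in MSC (slope 0.45 ± 0.09 SE, limma adjusted p = 0.0812). Mycn was low in MSC, where the replication and mitosis genes were highest.

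The promoters of replication and mitosis genes were searched for motifs known to act in each group. The CHR element (TTTGAA or TTCGAA) and CCAAT boxes are known from mitosis promoters, and E2F sites (here TTTCGCGC, TTTGGCGC, TTTCCCGC or TTTGCCGC) from replication promoters. All were searched on both strands in the 250 bases before the start in RefSeq promoters of build GRCm38.p6, which matched 38 of the 46 genes. CHR was in 7 of 15 mitosis promoters (46.7%) and 3 of 14 replication promoters (21.4%; Mcm7 has 2 promoters), against 17.1% of all promoters. CCAAT was in 14 of 15 mitosis promoters (93.3%) and 11 of 14 replication promoters (78.6%), against 33.8% of all. E2F letters were in 5 of 14 replication promoters (35.7%) and 1 of 15 mitosis promoters (6.67%), against 1.86% of all. A match describes letters only, and the data hold no binding. No relation between the motifs and the levels was tested. The 150 bases before the start are given for 2 mitosis and 2 replication genes, 5′ to 3′ on the strand of the gene, with every match of these motifs in capitals. Both mitosis genes shown hold CHR and both replication genes E2F letters, which most promoters of their lists lack, so they are not typical. Top2a lies on the minus strand at chr11:99024190-99024339 with 3 CHR and 4 CCAAT matches, and Cdk1 on the minus strand at chr10:69352913-69353062 with 2 CHR matches, 2 CCAAT matches and the E2F match of the mitosis group. Mcm6 lies on the minus strand at chr1:128359706-128359855 with 2 CCAAT and 3 E2F matches, of which 2 on opposite strands overlap, and Orc1 on the plus strand at chr4:108579304-108579453 with 2 CCAAT matches and 1 E2F match.
Top2a: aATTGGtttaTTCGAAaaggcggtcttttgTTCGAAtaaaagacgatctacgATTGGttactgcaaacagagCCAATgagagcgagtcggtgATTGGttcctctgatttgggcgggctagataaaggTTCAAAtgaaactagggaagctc
Cdk1: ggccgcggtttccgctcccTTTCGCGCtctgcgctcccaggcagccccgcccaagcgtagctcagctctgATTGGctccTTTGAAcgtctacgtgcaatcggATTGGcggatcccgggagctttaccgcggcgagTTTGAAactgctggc
Mcm6: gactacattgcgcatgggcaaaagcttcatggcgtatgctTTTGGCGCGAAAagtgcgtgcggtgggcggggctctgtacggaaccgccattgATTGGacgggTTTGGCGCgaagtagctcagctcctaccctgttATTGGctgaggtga
Orc1: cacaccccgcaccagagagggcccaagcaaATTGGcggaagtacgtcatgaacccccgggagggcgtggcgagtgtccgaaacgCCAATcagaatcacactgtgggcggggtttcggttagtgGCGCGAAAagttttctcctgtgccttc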

How the data were processed

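RNA of 8 cell samples was read on 1-colour Agilent arrays (Cy3, 1 array each). The intensity values are processed signals from Agilent Feature Extraction 11.5.1.1, with the background subtracted and without scaling of 1 array to another, per the file headers. The deposited log2 table of the authors, scaled to the 75th percentile per the series' description, was an alternative.

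Each value here is the log2 signal minus the log2 75th percentile of the array. Outlier spots were dropped and spots of a probe averaged. RefSeq accessions named 67.4% of 39429 probes, and the probe with the highest mean stood for a gene. Genes entered a comparison if above background on 1 or more of its arrays. An "at least" fold sets the brighter array against the dim array's lowest signal above background, or the gene's own signal there if higher.

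R 4.3.3 with limma 3.58.1 fitted the slope over 5 stages and the liver contrast, adjusted by Benjamini-Hochberg over all genes and tested on simulated data. Pairs of arrays were not tested. Alternatives were the scaling, normexp (offset 50, on median signals since mean signals were not among the columns, and fitted without spots marked as outliers, a choice made after a spot on the E13.5 array was seen to distort it), filters, a floor, probe averaging, the prior, left-out arrays and slide. All 46 genes are reported, and from each further list up to 4 genes of largest slope, besides Cdkn1c, which was named after its values were seen. Members and lists were chosen with earlier results of these data known.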

Additional observations from a re-analysis of the deposited data

How the results depend on the processing

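No slope of the 46 genes passed an adjusted p of 0.05 in limma as reported, but 13 did with normexp background correction (758 of all genes), 13 with an intensity trend and robust prior (1136 of all genes) and 9 when genes had to be above background on every array compared (623 of all genes), and quantile normalization called 99 genes, 0 of them members. Bub1b, Cenpa, Mcm10, Mcm2, Mcm5, Mcm7, Rrm1 and Top2a passed in all 3 of these. Leaving out 1 array gave 0 members each time. As reported, 37 of 44 slopes were negative, and 36 to 38 were under each of 15 alternatives, which do not all test the same 44 genes. In the liver comparison 1 member passed as reported. With normexp, with the mean of all probes, and with the p75NTR arrays alone on the liver side, 2 passed (Cdkn2a and Cdkn2b). With the strict filter, which removes both, and with slide as a block or slide 2 alone, 0 passed (limma adjusted p for Cdkn2a 0.108 and 0.541). Leaving out 1 array gave 0 to 2, and Cdkn2a missed the threshold without E13.5, E14.5, E17.5, P1 or MSC. All genes called there numbered 259, against 74 with slide as a block, 0 in slide 2 alone, 157 with the strict filter, 524 with the p75NTR arrays alone, and 82 to 1278 without 1 array. The Cdkn median for E13.5 over E11.5, -0.08 as reported, was 0.10 with median scaling, 0.10 with quantile normalization and 0.11 with the strict filter. Normexp, which compresses dim signals, gave smaller medians: P1 over E11.5 Cdkn 0.75, adult HSC over P1 replication -1.01, mitosis -2.11 and Cdkn 0.97, E11.5 over MEF Cdkn -2.86, P1 over MEF Cdkn -3.07, adult HSC over MEF replication -1.47 and mitosis -3.41, adult HSC over MSC mitosis -4.49. With median scaling the median of all genes was -0.98 for P1 over MSC (0.03 as reported) and 0.73 for adult HSC over P1 (-0.06 as reported), and 8 replication and 13 mitosis genes were then at least 2-fold lower in adult HSC than at P1. No paired analysis was possible because each group has 1 array. The cause of these changes was not tested except where stated. Levels near background limit Ttk, Orc1, Kif11, Cdkn2a and Cdkn2b.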
